A study of Rattus norvegicus with 84 samples.

Results

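The antioxidant and glutathione enzymes of the hippocampus were described as a list of 35 genes, chosen by symbol: superoxide dismutases, catalase and glutathione peroxidases, peroxiredoxins, thioredoxins and their reductases, the enzymes that make and recycle glutathione, glutathione transferases, and the regulators Nfe2l2 and Keap1 with quinone and heme enzymes. Of these, 33 were found in each subregion table (CA1 15553 genes, CA3 15706, dentate gyrus or DG 15374), and all 33 passed the filter on low values in every subregion. The expression of Srxn1 and Gstm5 was not analysed here. RNA was sequenced from CA1, CA3 and the DG of 28 male rats of the inbred F344 strain, 12 young (5 months) and 16 middle-aged (12 months), 1 library per rat and subregion and 84 in all. All tissue came from 1 hemisphere, the labels name neither a transgene nor a treatment, and the title of the series concerns how spatial pattern separation, the telling apart of similar places, changes with age. Behaviour was not analysed here.

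Superoxide dismutases turn superoxide into hydrogen peroxide. Catalase, glutathione peroxidases and peroxiredoxins then remove peroxides. Glutathione peroxidases draw electrons from glutathione and most peroxiredoxins from thioredoxin, and glutathione reductase and thioredoxin reductases regenerate both with NADPH. Glutathione is made by glutamate-cysteine ligase (Gclc and Gclm) and glutathione synthetase (Gss), is joined to reactive molecules by glutathione transferases, and in brain is supplied to neurons largely with the help of astrocytes. Many of these genes are known targets of the transcription factor NRF2 (Nfe2l2), which KEAP1 (Keap1) holds in check by passing it to a CUL3 ubiquitin ligase, and which binds antioxidant response elements.

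Libraries held 14.4 to 23.4 M (mega) recovered reads, and no 2 libraries agreed within sampling noise. Subregion labels matched the markers in every library: the summed level of 4 CA1 pyramidal markers was 31400 to 63100 in CA1 and at most 19900 elsewhere, 3 CA3 pyramidal markers reached 11100 to 14800 in CA3 and at most 9440 elsewhere, and 3 dentate granule markers reached 7810 to 14100 in the DG and at most 5810 elsewhere. Animals were grouped here by number into 2 runs. The lower numbers (first run) belong to 6 young and 10 middle-aged rats, and the higher ones (second run) to 6 of each age. In the first run the numbers of the ages adjoin. In the second a gap separates the young from the middle-aged numbers, and it was still treated as a single run. The labels do not call these runs batches. Within a run, each age holds its own block of numbers, so a difference between blocks and age cannot be told apart. The share of reads from mitochondrially encoded genes was 8.54 ± 2.43% in young and 11.5 ± 1.81% in middle-aged CA1 (SD, n = 12 and 16). In CA1, median depth was 18.5 M reads at 5 months and 16.1 M at 12 months. The medians were 19.3 and 18.2 M in CA3, and 17.9 and 17.7 M in the DG. Choroid plexus markers were at 21.6 to 547 in middle-aged CA1 and up to 1800 in young CA1, and in single libraries of the other subregions they reached 20400 (middle-aged replicate 7, CA3) and 7520 (young replicate 10, DG). Microglia markers of middle-aged replicate 10 summed to 42300 in CA1 and 31000 in CA3, where the medians of that age were 8690 and 8380. Results whose call changed are also given without the rats whose choroid plexus or microglia markers exceeded 3 times the median of the subregion. In tissue RNA, fewer cells of a type and less RNA per cell cannot be told apart.

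The stretch before the gene start was read from the RefSeq promoter table (build GRCr8) for members of the list. The letters TGACNNNGC, the core of the antioxidant response element, were searched on both strands in a window from 250 bases before to 50 bases after the start. They occurred in 10 of the 30 members with a promoter in the table (33.3%), in 12.1% of 33469 promoters of the table, and in 15.4% of 10958 genes of the deposited tables. The 3 promoters printed here are examples, chosen after the values were seen, of genes that hold the letters before the start and were called higher at 12 months. Capitals mark the match. In Prdx1 and Gstp1 the match also holds the letters TGACTCA on one strand, which the AP-1 motif shares. A match is a description of the letters and not a bound site.
Prdx1: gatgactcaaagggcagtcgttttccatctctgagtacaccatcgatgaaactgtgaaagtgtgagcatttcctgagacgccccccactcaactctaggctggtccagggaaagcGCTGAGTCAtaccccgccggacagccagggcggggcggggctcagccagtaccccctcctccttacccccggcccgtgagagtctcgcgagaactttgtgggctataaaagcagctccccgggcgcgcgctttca
Gclm: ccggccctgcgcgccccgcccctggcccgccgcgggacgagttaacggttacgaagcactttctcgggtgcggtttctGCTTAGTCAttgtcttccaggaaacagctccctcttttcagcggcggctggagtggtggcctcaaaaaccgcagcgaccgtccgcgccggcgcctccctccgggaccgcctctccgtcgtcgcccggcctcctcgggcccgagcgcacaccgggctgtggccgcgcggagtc
Gstp1: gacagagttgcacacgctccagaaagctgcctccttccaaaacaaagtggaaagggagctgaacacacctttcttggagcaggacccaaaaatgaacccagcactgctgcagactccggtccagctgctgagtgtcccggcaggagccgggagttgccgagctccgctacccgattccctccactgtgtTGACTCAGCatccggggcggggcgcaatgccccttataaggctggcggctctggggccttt
The Prdx1 stretch lies at chr5:135383656-135383905 on the plus strand with the match starting at position -135 from the gene start, the Gclm stretch at chr2:213031885-213032134 on the plus strand with the match at -172, and the Gstp1 stretch at chr1:210769706-210769955 on the minus strand with the match at -61. Of the other members, Sod2, Prdx4, Prdx5, Txnrd1, Nfe2l2, Hmox2 and Gstm5 also held the letters, and the windows of Keap1, Nqo1 and Gclc did not.

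Levels between subregions were described in RPM (reads-per-million of the recovered reads of a library), since each table was normalized on its own, and they were not tested. Most members differed little between subregions. The ratio of the highest to the lowest subregion median had a median of 1.18 over the 33 members and of 1.265 over 14144 genes, and it reached 1.5 for 4 members (12.1%) and for 25.9% of all genes. The median was highest in CA3 for 16 members, in the DG for 9 and in CA1 for 8, where 32.7%, 39.7% and 27.6% of 14145 genes had their highest median. After joint scaling of all 84 libraries by TMM, the highest subregion was the same for 32 members (the exception was Prdx3) and the lowest for 32 (the exception was Prdx6).

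**Figure D1:**
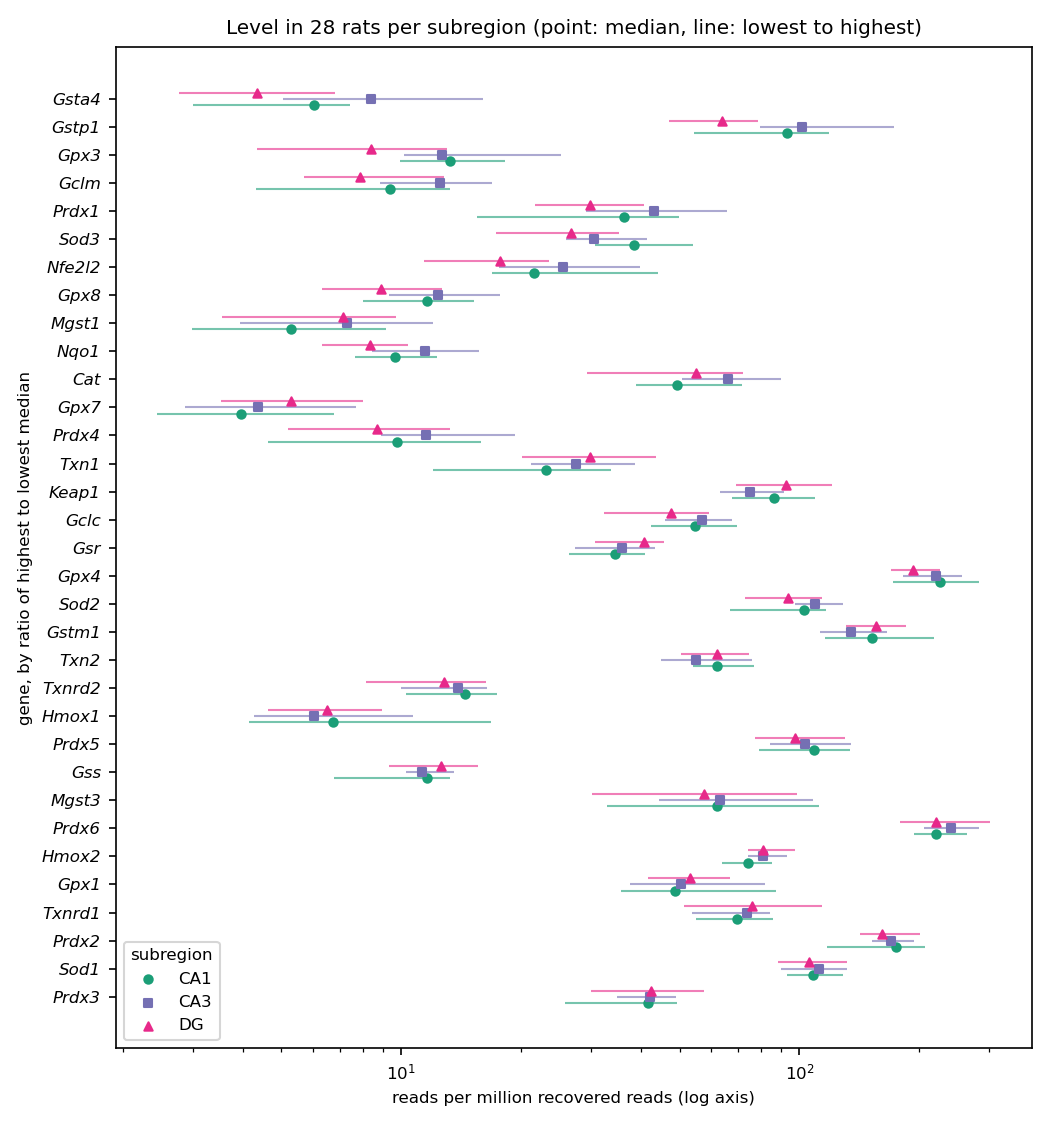
RPM (log axis) of the 33 members in CA1, CA3 and the DG. Points are medians and lines run from the lowest to the highest of 28 rats; genes are ordered by the ratio of the highest to the lowest median, from 1.015 for Prdx3 at the bottom to 1.94 for Gsta4 at the top.

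Gsta4, a transferase that conjugates the lipid peroxidation product 4-hydroxynonenal, differed most, with medians of 8.39 RPM in CA3, 6.04 in CA1 and 4.33 in the DG. CA3 was its highest subregion in 24 of 28 rats. Gstp1, the pi-class transferase, had medians of 101.7 in CA3, 93.3 in CA1 and 63.8 in the DG, and the secreted peroxidase Gpx3 had 13.3 (CA1), 12.6 (CA3) and 8.38 (DG). For both of these genes the DG was lowest in 28 of 28 rats, while CA1 and CA3 changed places between rats: CA1 lay above CA3 in 14 of 28 rats for Gpx3, and CA3 above CA1 in 21 of 28 for Gstp1. Gclm, the modifier subunit of glutamate-cysteine ligase, had 12.5 in CA3, 9.35 in CA1 and 7.895 in the DG, and CA3 was highest in 25 of 28 rats. Its catalytic partner Gclc had 56.98 in CA3, 54.55 in CA1 and 47.45 in the DG, which was lowest in 22 of 28 rats.

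Prdx1 and Nfe2l2 also followed the order CA3, CA1, DG, with medians of 43.1, 36.2 and 29.8 for Prdx1 and of 25.4, 21.6 and 17.7 for Nfe2l2. Keap1 had the opposite extremes, with 92.6 (DG), 86.2 (CA1) and 75.1 (CA3). Catalase was highest in CA3 in 26 of 28 rats, with a median of 66.15 against 54.9 in the DG and 49.3 in CA1. Glutathione reductase (Gsr) was highest in the DG in 23 of 28 rats, at 40.7 against 35.9 in CA3 and 34.45 in CA1. Extracellular superoxide dismutase (Sod3) was highest in CA1 in 23 of 28 rats, at 38.3 against 30.5 in CA3 and 26.6 in the DG. At the flat end, the mitochondrial peroxiredoxin Prdx3 had medians of 42.3, 42.0 and 41.7, and Sod1 had 112 (CA3), 108 (CA1) and 106 (DG). For both, the order of the subregions differed between the ages. No member was highest in the same subregion in all 28 rats.

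Age was compared in each subregion and on the mean of a rat's 3 subregions with limma on log2 of the deposited normalized read count plus 1. P-values were adjusted over all genes tested, and a gene was called at an adjusted p under 0.05. Changes are log2 values at 12 minus 5 months, given with standard errors. In CA1, 6 of 33 members were called, 5 higher and 1 lower, where 25.2% of 14685 genes were called (12.4% higher, 12.8% lower). CA3 had 8 called members, 6 higher and 2 lower, where 21.7% of 14893 genes were called (10.9% higher, 10.8% lower). The DG had 11, 4 higher and 7 lower, where 37.1% of 14526 genes were called (18.5% higher, 18.5% lower). For the average, 16 were called, 8 in each direction, where 50% of 14291 genes were called (25.4% higher, 24.6% lower).

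The called shares of the members, 18.2%, 24.2%, 33.3% and 48.5%, thus lay near or below those of all genes. Their median change was 0.10 (CA1), 0.01 (CA3), -0.01 (DG) and 0.05 (average), and that of all genes was at most 0.01 in each. After quantile normalization the split was 6 higher and 0 lower in CA1 and 4 higher and 3 lower in the DG. Of all genes, 23.9% (CA1) and 36.4% (DG) were then called. Over the 3 subregions, 20 members were called in at least 1: 1 of them in all 3 (Prdx1), 3 in 2 subregions (Gclc, Mgst3 and Keap1) and 16 in 1. A further gene, Gpx8, was called on the average only, and 12 were called nowhere. The young and the middle-aged values overlapped for every member in every subregion. Overlap was not counted over all genes, so it is not read as a trait of these members.

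**Figure D2:**
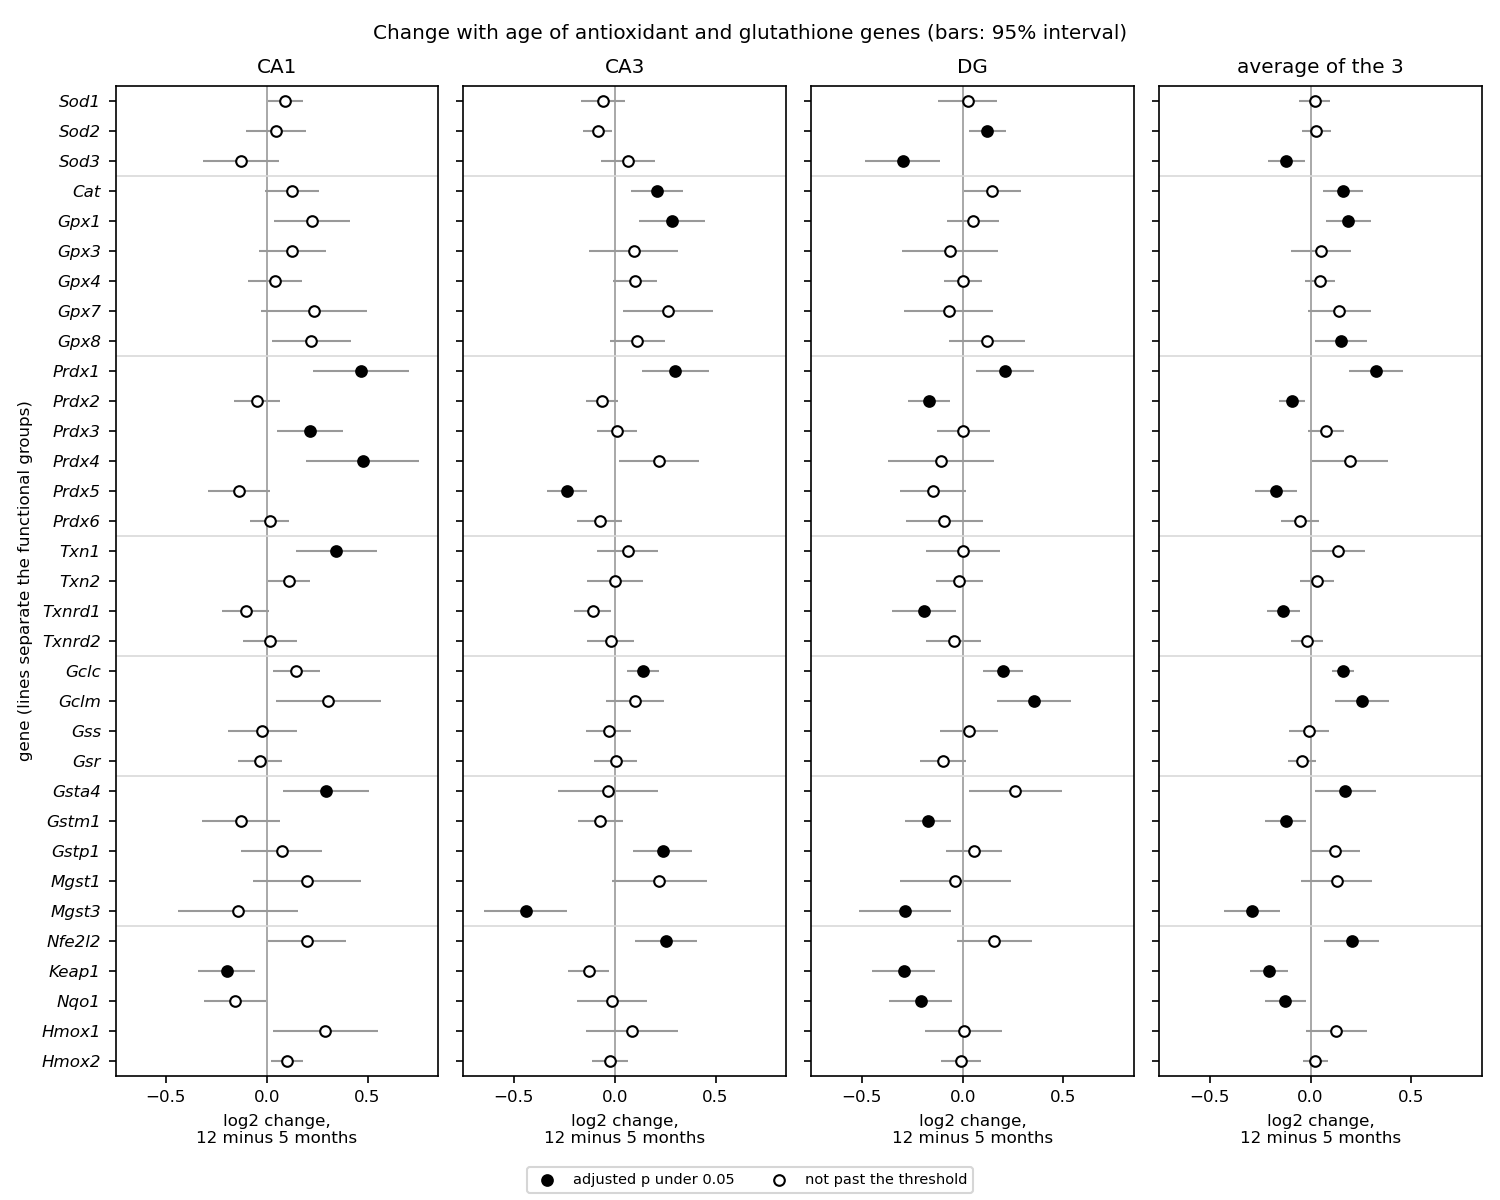
Log2 change from 5 to 12 months with its 95% interval for the 33 members, in CA1, CA3, the DG and on the average of the 3 (12 young and 16 middle-aged rats). Filled points passed an adjusted p of 0.05 (6, 8, 11 and 16 genes); Prdx1 lies above 0 and is filled in all 4 panels.

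Among the superoxide dismutases, Sod2, the manganese enzyme of mitochondria, and Sod3, the copper-zinc enzyme outside cells, moved in opposite directions in the DG. Sod2 counts in the DG ranged from 1326 to 1748 (median 1568) in young and from 1413 to 1917 (median 1704) in middle-aged rats. Of the latter, 15 of 16 lay above the young median and 5 above every young rat. The change was 0.12 ± 0.04 (adjusted p = 0.0298). Sod3 counts in the DG ranged from 392 to 660 (median 516) in young and from 296 to 605 (median 414) in middle-aged rats, 14 of which lay below the young median. Sod3 changed by -0.30 ± 0.09 (adjusted p = 0.0112), and on the average by -0.12 ± 0.05 (adjusted p = 0.0304). The average call was lost in either run alone, with the rat as a random block, in 4 of 28 fits omitting a single rat, and without the 12 rats with high markers in any subregion, at -0.08 (adjusted p = 0.354).

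In CA3 the changes of both had the other sign and were not called, at -0.08 ± 0.03 for Sod2 and 0.07 ± 0.06 for Sod3. The difference of the age effect within rats, DG minus CA3, was called for these 2 members only, where 3.38% of 14378 genes were called. The log2 value of Sod2 in the DG minus that in CA3 ran from -0.72 to -0.25 (median -0.46) in young and from -0.51 to -0.08 (median -0.24) in middle-aged rats, a difference of 0.21 ± 0.05 (adjusted p = 0.0263). For Sod3 it ran from -0.55 to 0.26 (median -0.09) in young and from -0.88 to 0.08 (median -0.49) in middle-aged rats, a difference of -0.36 ± 0.10 (adjusted p = 0.0428). So with age the DG minus CA3 value rose for Sod2 and fell for Sod3, and the ranges of the ages overlapped for both. Each subregion was normalized on its own, so the size of this value is not read as a level difference. In RPM, Sod2 medians in CA3 and the DG were 111.7 and 89.95 in young and 109.3 and 99.33 in middle-aged rats. Sod3 medians were 29.69 and 29.26 in young and 31.88 and 24.07 in middle-aged rats.

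In the first and the second run alone the Sod2 difference was 0.16 (adjusted p = 0.405) and 0.27 (adjusted p = 0.0593), and the Sod3 difference was -0.27 (adjusted p = 0.463) and -0.52 (adjusted p = 0.0293). The Sod2 call was lost without young replicate 7 or young replicate 11, and the Sod3 call was missed by 19 of 28 fits that each omitted a single rat. Both were lost without the 9 rats with high choroid plexus or microglia markers in the DG or CA3, at 0.24 (adjusted p = 0.109) and -0.32 (adjusted p = 0.216), and in 1 fit of all libraries with or without the rat as a random block. Calls over all genes also fell, from 3.38% in the main test to 0.104% without these rats. In the joint fit 1.86% of all genes were called with the block and 0.448% without it. Beside Sod3 in the DG, 4 of 8 meningeal fibroblast markers tested were called lower, where 18.5% of all genes were called lower. Their sums were 363 to 1130 in young and 242 to 524 in middle-aged rats. The 6 mural cell markers had sums of 1430 to 2320 and 1270 to 1930. The part of these cells in the change of Sod3 was not tested. Sod1, the cytosolic copper-zinc enzyme, was called in no subregion.

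**Figure D3:**
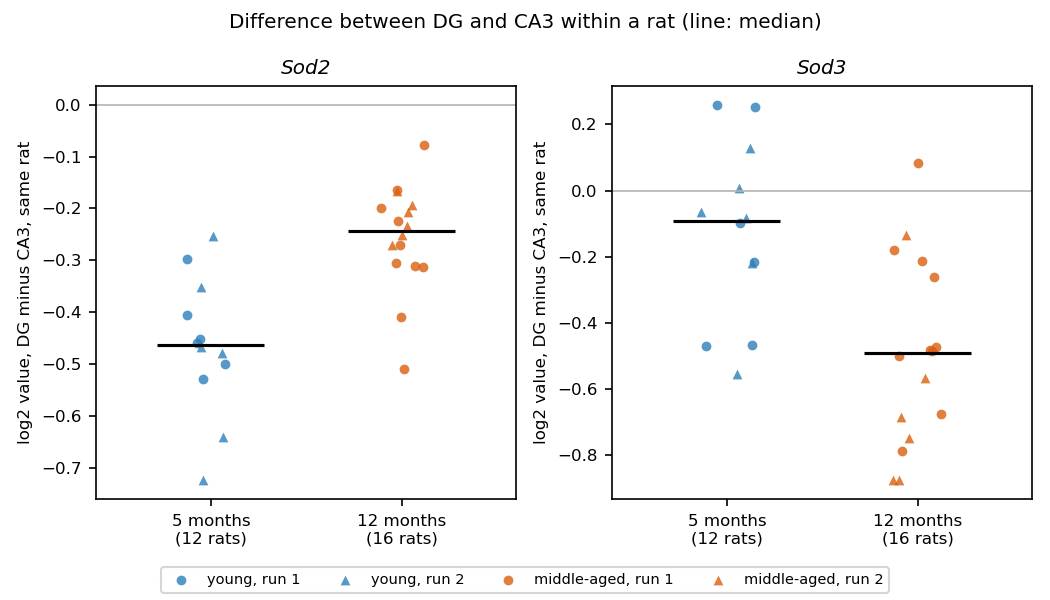
Log2 value in the DG minus that in CA3 of the same rat (each subregion normalized on its own) for Sod2 and Sod3 at 5 months (12 rats) and 12 months (16 rats). Points are rats, with circles for the first and triangles for the second run of animal numbers, and lines are medians, which move from -0.46 to -0.24 for Sod2 and from -0.09 to -0.49 for Sod3.

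No difference of the age effect between the DG and CA1 was called among the members (5 had an unadjusted limma p under 0.05), where 1.05% of 14340 genes were called. None was called between CA1 and CA3 either (again 5 at an unadjusted p under 0.05), where 0.0138% of 14513 genes were called. No other tool was run on these differences. In simulated data, 4.81% of 1.2-fold differences were recovered for the DG minus CA1, so members not called may still differ. Prdx4, the peroxiredoxin of the endoplasmic reticulum, came nearest for the DG minus CA1, at -0.58 ± 0.16 (adjusted p = 0.0554), and it was called when the run was added to the model, at -0.59 (adjusted p = 0.0432 in limma).

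Of the enzymes that remove peroxides, catalase and all 5 glutathione peroxidases measured had a change above 0 in CA1 and in CA3, and 2 of these 6 genes were called, both in CA3. Catalase counts in CA3 ranged from 1007 to 1360 (median 1132) in young and from 991 to 1635 (median 1358) in middle-aged rats, 8 of which lay above every young rat. The CA3 change of catalase was 0.21 ± 0.06 (adjusted p = 0.0164), with 0.22 and 0.24 in the runs, neither called alone, and it was 0.16 (adjusted p = 0.108) without the 6 rats with high choroid plexus or microglia markers. On the average, catalase changed by 0.16 ± 0.05 (adjusted p = 0.00754) and was called in each run, but not without the 12 rats with high markers (0.11, adjusted p = 0.239).

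Gpx1, the main cytosolic glutathione peroxidase, had CA3 counts of 702 to 1329 (median 827) in young and 789 to 1489 (median 1040) in middle-aged rats, 15 of which lay above the young median. It changed by 0.28 ± 0.08 in CA3 (adjusted p = 0.011), 0.22 ± 0.09 in CA1 (adjusted p = 0.0712), 0.05 ± 0.06 in the DG (adjusted p = 0.542) and 0.19 ± 0.05 on the average (adjusted p = 0.00528). Of 9 microglia markers tested, 6 were called higher in CA3, 3 in CA1 and 2 in the DG. Of all genes, 10.9% (CA3), 12.4% (CA1) and 18.5% (DG) were called higher. The CA3 sums of the microglia markers were 6140 to 7900 (median 7240) in young and 7600 to 31000 (median 8380) in middle-aged rats. The highest Gpx1 value of each subregion at 12 months was in middle-aged replicate 10, the rat with the highest microglia sum. The part of microglia in the change of Gpx1 was not tested. The lowest CA3 change of Gpx1 when 1 rat was left out was 0.25, and without the 6 rats with high markers it was 0.25 (adjusted p = 0.00844). The average of Gpx1 without the 12 rats with high markers was 0.13 (adjusted p = 0.0502), no longer called. In the runs the CA3 change was 0.42 and 0.13, the second not called.

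Gpx8, a peroxidase of the endoplasmic reticulum, was called on the average alone, at 0.15 ± 0.06 (adjusted p = 0.0458), a call that 18 of 28 fits omitting a single rat did not make. In the runs it was 0.02 and 0.35. Its fellow Gpx7 was above the young median in 16 of 16 middle-aged rats in CA3, with counts of 55.4 to 145 (median 70.1) in young and 72.0 to 112 (median 85.03) in middle-aged rats, but the adjusted p of 0.0798 for the change of 0.26 missed the threshold. Gpx7 was called without the 6 rats with high markers, at 0.41 (adjusted p = 0.0102), and without young replicate 12 alone, at 0.35 (adjusted p = 0.00662). Gpx3 and Gpx4, the latter being the enzyme that reduces lipid peroxides in membranes, were not called in any comparison. Gpx4 changed by 0.04 (CA1), 0.10 (CA3) and 0.0026 (DG), with a 95% interval on the average from -0.03 to 0.12.

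The peroxiredoxins divided, with Prdx1, Prdx3 and Prdx4 higher and Prdx2 and Prdx5 lower where they were called. Prdx1, an abundant cytosolic peroxiredoxin, was the member called in every subregion. Its CA1 counts ranged from 288 to 676 (median 546) in young and from 526 to 852 (median 725) in middle-aged rats. In CA3 they were 550 to 893 (median 719) and 685 to 1182 (median 884.5), and in the DG 374.5 to 552 (median 471) and 441 to 686 (median 535). In each subregion 14 of 16 middle-aged rats lay above the young median, and 10 (CA1), 7 (CA3) and 7 (DG) lay above every young rat.

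The change of Prdx1 was 0.47 ± 0.12 for CA1 (adjusted p = 0.00563), 0.30 ± 0.08 for CA3 (adjusted p = 0.00861), 0.21 ± 0.07 for the DG (adjusted p = 0.0188) and 0.33 ± 0.06 on the average (adjusted p = 0.00017), a 1.25-fold higher level. The first and second run gave 0.68 and 0.28 for CA1, 0.08 and 0.62 for CA3, and 0.12 and 0.35 for the DG. On the average both runs were called, at 0.30 and 0.41. In CA1 the 4 lowest young rats belonged to the first run, as the plot of values by library shows. Without the 6 rats with high choroid plexus or microglia markers, 5 of them young, the CA1 change was 0.32 (adjusted p = 0.0881).

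Prdx4 counts in CA1 ranged from 86.4 to 267 (median 157.5) in young and from 149 to 276 (median 225) in middle-aged rats, and 15 of 16 lay above the young median. Its change there was 0.48 ± 0.14 (adjusted p = 0.0126), with 0.62 and 0.43 in the runs, both called, and 0.31 (adjusted p = 0.158) without the 6 rats with high markers. In CA3 it was 0.22 ± 0.10 (adjusted p = 0.096) and in the DG -0.11 ± 0.13 (adjusted p = 0.532). Prdx3 counts in CA1 were 478 to 811 (median 652) in young and 508 to 860 (median 743) in middle-aged rats, a change of 0.21 ± 0.08 (adjusted p = 0.0481). The call was not made by 18 of 28 fits omitting a single rat, and it was lost under quantile normalization, in either run alone and without the 6 rats with high markers, at 0.12 (adjusted p = 0.355).

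Prdx5, found in mitochondria, peroxisomes and cytosol, had CA3 counts of 1864 to 2681 (median 2160) in young and 1590 to 2063 (median 1833) in middle-aged rats. All 16 middle-aged rats lay below the young median and 9 below every young rat. It changed by -0.23 ± 0.05 in CA3 (adjusted p = 0.00146), at -0.23 and -0.27 in the runs, both called, and at -0.24 (adjusted p = 0.00875) without the rats with high markers. The values were -0.14 in CA1 and -0.15 in the DG, not called, and -0.17 ± 0.05 on the average (adjusted p = 0.00547). Without the 12 rats with high markers the average was -0.11 (adjusted p = 0.103). Prdx2, a cytosolic peroxiredoxin abundant in neurons, fell in the DG by 0.17 (SE 0.05, adjusted p = 0.012), from counts of 2599 to 3489 (median 3088) to counts of 2394 to 3533 (median 2626), with 15 of 16 below the young median. The call was lost after quantile normalization. On the average Prdx2 changed by -0.09 ± 0.03 (adjusted p = 0.0133), a call also lost after quantile normalization and in the first run alone. Prdx6 was not called anywhere.

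**Figure D4:**
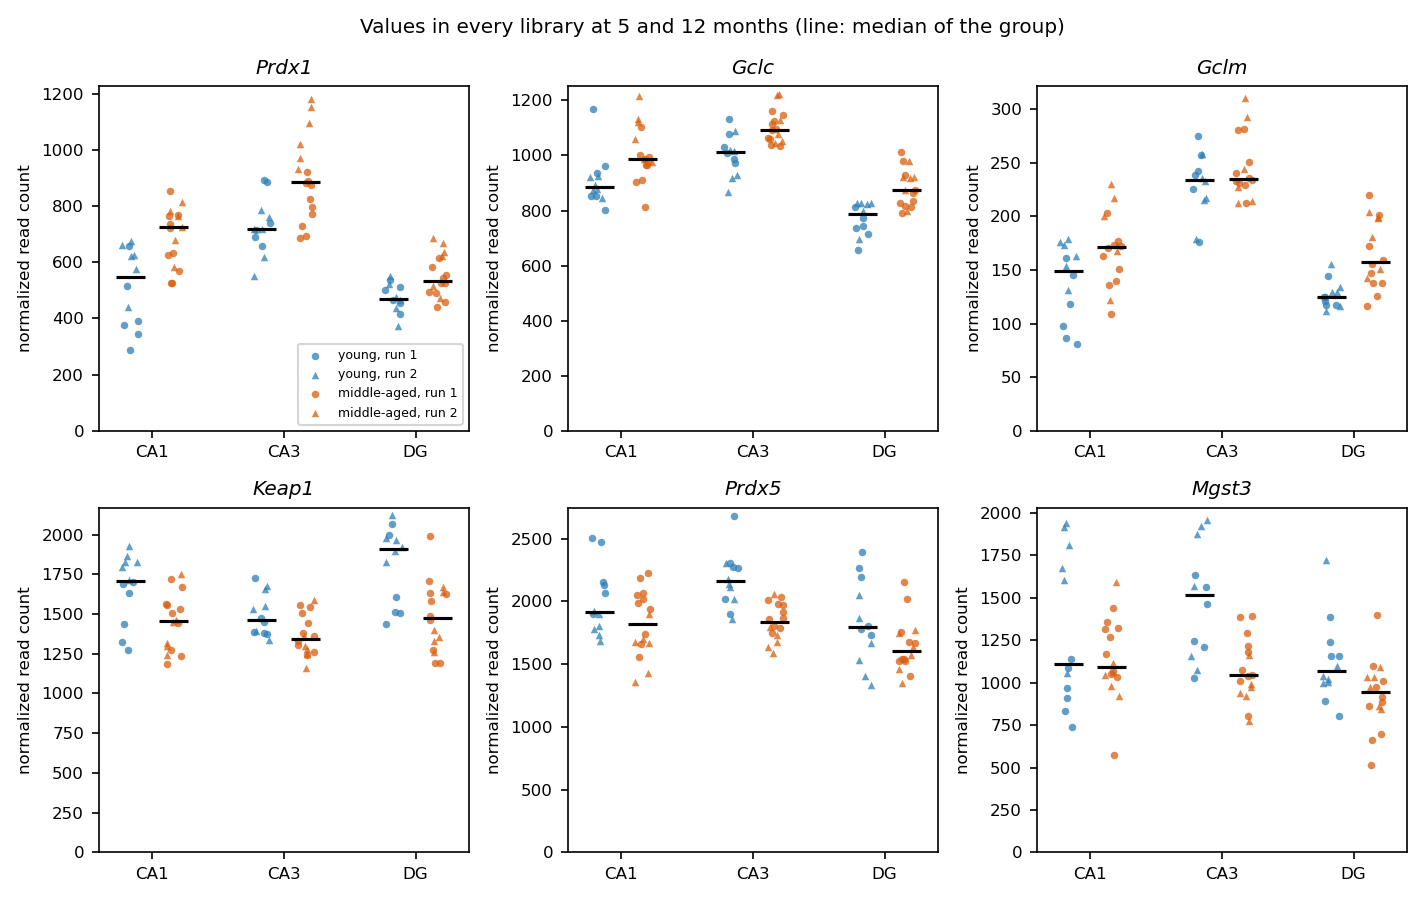
Deposited normalized read counts of 6 members in every library, by subregion (each table normalized on its own) and age, blue at 5 months and orange at 12 months. Circles are the first and triangles the second run of animal numbers, and lines are group medians; for Prdx5 in CA3 all 16 middle-aged rats lie below the young median of 2160, and for Gclc in the DG all 16 lie above the young median of 786.

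Thioredoxin, the electron donor of the peroxiredoxins (Txn1), was called in CA1, with counts of 223 to 437.5 (median 349) in young and 339 to 577 (median 424) in middle-aged rats. It changed by 0.34 ± 0.10 (adjusted p = 0.0121), with 0.59 and 0.12 in the runs, and by 0.21 (adjusted p = 0.153) without the rats with high markers. Its changes in CA3 and the DG were 0.06 and 0.0007. The cytosolic reductase Txnrd1 had DG counts of 1059 to 1982 (median 1450) in young and 1130 to 1491 (median 1271) in middle-aged rats, with 15 of 16 below the young median. The change of Txnrd1 in the DG, -0.19 ± 0.08 (adjusted p = 0.0495), was 0.10 for the first run and -0.51 for the second. On the average it was -0.14 ± 0.04 (adjusted p = 0.00575), at 0.0096 and -0.31 in the runs, so its sign differed between the runs in both. The DG call was lost in 18 of 28 fits omitting a single rat and after TMM or quantile normalization. Mitochondrial thioredoxin (Txn2) and its reductase (Txnrd2) were not called.

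Both subunits of glutamate-cysteine ligase, the first enzyme of glutathione synthesis, rose, while glutathione synthetase and glutathione reductase were not called. Gclc counts ranged in the DG from 658 to 828 (median 786) in young and from 791 to 1013 (median 874) in middle-aged rats. Its CA3 counts were 868 to 1132 (median 1013) and 1034 to 1224 (median 1093), and those of CA1 802 to 1168 (median 884) and 812 to 1217 (median 986). In the DG and in CA3, 16 of 16 middle-aged rats lay above the young median, and in the DG 11 lay above every young rat. The change of Gclc was 0.20 ± 0.05 in the DG (adjusted p = 0.00243), 0.14 ± 0.04 in CA3 (adjusted p = 0.0111) and 0.15 ± 0.06 in CA1 (adjusted p = 0.0517), where it was called without the 6 rats with high markers, at 0.21 (adjusted p = 0.0305).

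On the average, Gclc changed by 0.16 ± 0.03 (adjusted p = 2.55e-05), a 1.12-fold higher level and the smallest p of the list. It was called in both runs, at 0.13 and 0.22, and without the 12 rats with high markers in any subregion, at 0.17 (adjusted p = 0.00214). Gclm counts in the DG ranged from 112 to 156 (median 125) in young and from 116 to 220 (median 157) in middle-aged rats, with 8 above every young rat. Gclm changed by 0.36 ± 0.09 in the DG (adjusted p = 0.00314), 0.30 ± 0.13 in CA1 (adjusted p = 0.0717), 0.10 ± 0.07 in CA3 (adjusted p = 0.311) and 0.254 ± 0.065 on the average (adjusted p = 0.0019), where both runs were called at 0.28 and 0.26. Gss changed by -0.01 on the average (95% interval -0.11 to 0.09) and Gsr by -0.04 (-0.11 to 0.03).

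The glutathione transferases went in both directions. Gstp1 rose in CA3, from 1570 to 1983 (median 1801) in young to 1636 to 3022 (median 2042) in middle-aged rats, 10 of which lay above every young rat. Its change was 0.24 ± 0.07 (adjusted p = 0.017), with 0.14 and 0.41 in the runs, and 0.16 (adjusted p = 0.123) without the 6 rats with high markers. Gsta4 counts in CA1 were 55.8 to 126 (median 89.6) in young and 91.2 to 129 (median 115) in middle-aged rats, all 16 above the young median. Its change was 0.29 ± 0.10 in CA1 (adjusted p = 0.036) and 0.17 ± 0.07 on the average (adjusted p = 0.0467), calls that 7 and 19 of 28 fits omitting a single rat did not make. Both calls were also lost after quantile normalization and in the first run alone. In the DG the change of Gsta4 was 0.26 ± 0.11 (adjusted p = 0.0664), called without the 4 rats with high markers there, at 0.32 (adjusted p = 0.0445). Gstm1, a mu-class transferase abundant in astrocytes, fell in the DG by 0.17 (SE 0.06, adjusted p = 0.0166), from 2548 to 3321 (median 2928) in young to 2215 to 3291 (median 2509) in middle-aged rats. Of the latter, 9 of 16 lay below every young rat. On the average Gstm1 changed by -0.12 ± 0.05 (adjusted p = 0.0345) and by -0.04 (adjusted p = 0.686) without the 12 rats with high markers. Both Gstm1 calls were lost after quantile normalization. Because the mu-class genes are similar copies, reads of Gstm1 could have been split among them by the counting. The astrocyte markers had DG sums of 77700 to 93600 (median 85500) in young and 75900 to 110000 (median 89200) in middle-aged rats, with 1 of 10 called higher and 1 lower.

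Mgst3, a membrane-bound enzyme with transferase and peroxidase activity, fell in CA3 and in the DG. Its CA3 counts ranged from 1030 to 1960 (median 1515) in young and from 775 to 1394 (median 1044) in middle-aged rats. Of the latter, 16 of 16 lay below the young median in CA3. The CA3 change was -0.44 ± 0.10 (adjusted p = 0.00279), with -0.25 and -0.70 in the runs. In the DG it was -0.29 ± 0.11 (adjusted p = 0.0434), which 13 of 28 fits omitting a single rat did not call. The DG call was also lost with the run in the model, after quantile normalization, in either run alone and without the 4 rats with high markers (adjusted p = 0.0526). In CA1 it was -0.14 ± 0.15 (adjusted p = 0.484), and the runs differed in sign there, at 0.27 and -0.57. Without the 6 rats with high markers, 5 of them young, the CA1 change was -0.47 (adjusted p = 0.0308). On the average the change of Mgst3 was -0.29 ± 0.07 (adjusted p = 0.000806), with -0.10 and -0.49 in the runs. Mgst1 was not called.

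Of the regulators, Nfe2l2 was higher and Keap1 lower. Nfe2l2 counts in CA3 ranged from 324 to 553 (median 441) in young and from 392 to 694 (median 499) in middle-aged rats, 15 of which lay above the young median. Its change was 0.25 ± 0.07 in CA3 (adjusted p = 0.0149), 0.20 ± 0.09 in CA1 (adjusted p = 0.11), 0.16 ± 0.09 in the DG (adjusted p = 0.173) and 0.20 ± 0.07 on the average (adjusted p = 0.0118), with 0.14 and 0.23 in the runs. Without the 6 rats with high markers the CA3 change was 0.21 (adjusted p = 0.0523). In CA1 the highest Nfe2l2 count, 754, and the highest count of Hmox1, 288, were both in middle-aged replicate 10, the rat with the high microglia markers. Hmox1, the inducible heme oxygenase, was not called anywhere, and leaving out a rat brought its CA1 change of 0.29 as low as 0.21.

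Keap1 counts in the DG ranged from 1439 to 2122 (median 1909) in young and from 1189 to 1991 (median 1475) in middle-aged rats, with 15 of 16 below the young median and 7 below every young rat. In CA1 they were 1276 to 1927 (median 1708) and 1187 to 1749 (median 1455). Keap1 changed by -0.29 ± 0.08 in the DG (adjusted p = 0.0037), -0.20 ± 0.07 in CA1 (adjusted p = 0.0336), -0.13 ± 0.05 in CA3 (adjusted p = 0.0587) and -0.21 ± 0.05 on the average (adjusted p = 0.000475). In the runs the average was -0.09 and -0.34, and the first run alone was not called (adjusted p = 0.269). The CA1 call was missing from 12 of 28 fits omitting a single rat and after quantile normalization. Nqo1, a quinone reductase and textbook NRF2 target, fell in the DG by 0.21 (SE 0.08, adjusted p = 0.0321), from counts of 131 to 215 (median 158) to counts of 107 to 174 (median 141), opposite in sign to Gclc and Gclm in the same libraries. Its average changed by -0.13 ± 0.05 (adjusted p = 0.0347), and by -0.03 (adjusted p = 0.722) without the 12 rats with high markers. Hmox2, the constitutive heme oxygenase, was not called.

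The runs of animal numbers gave the same direction for 6 of 6 called members (CA1), 8 of 8 (CA3), 10 of 11 (DG) and 15 of 16 (average), Txnrd1 being the exception in the last pair. Called in both runs were Prdx4 in CA1, Prdx5 in CA3, 0 members in the DG by limma, and 6 of the 16 on the average: Cat, Prdx1, Prdx5, Gclc, Gclm and Gstm1. In the DG, 10 of the 11 were called by limma in the second run and 0 in the first, which holds the larger number of rats. In the second run a gap in the animal numbers separates the ages. The share of all genes called in the DG was 46.9% in the second run and 0.172% in the first. Without the rats with high choroid plexus or microglia markers, the number called was 4 for CA1, 6 for CA3 and 11 for the DG, and 10 for the average, where 12 of 28 rats were left out. The 4 in CA1 were 2 higher and 2 lower. Gsta4 and Keap1 stayed, Gclc and Mgst3 were new, and Prdx1, Prdx3, Prdx4 and Txn1 were lost there. Of all genes, 14.8% (CA1), 11.9% (CA3), 39.9% (DG) and 46.3% (average) were then called.

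**Figure D5:**
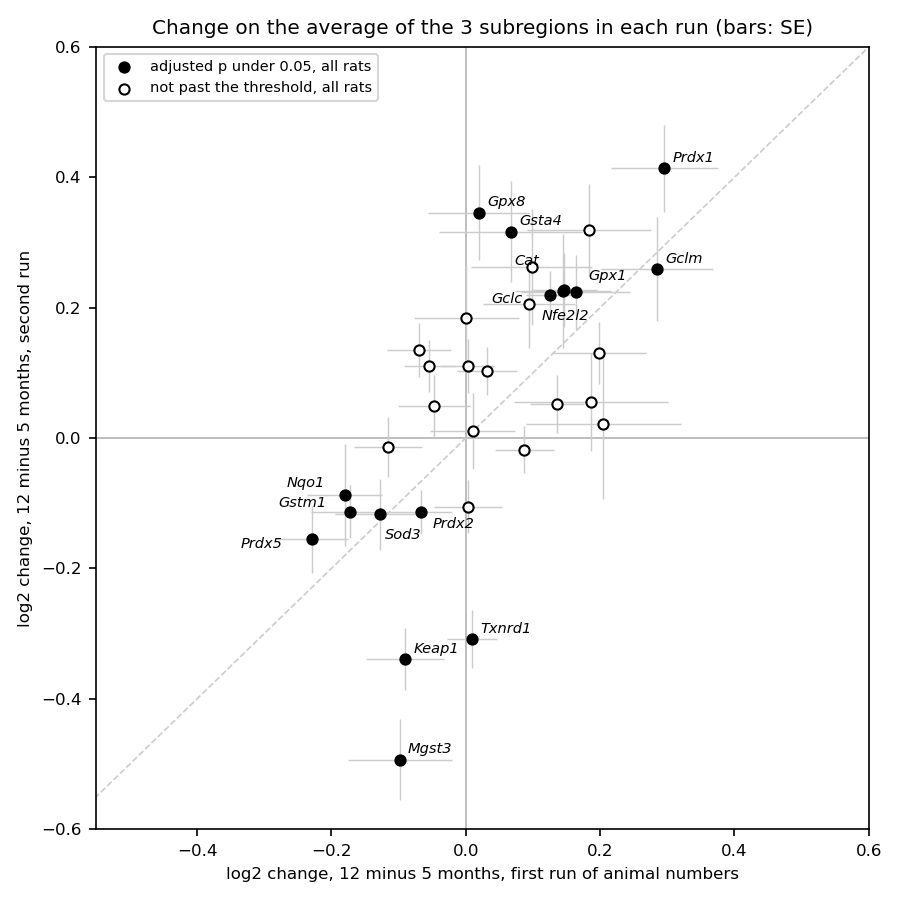
Log2 change from 5 to 12 months on the average of the 3 subregions in the first run of animal numbers (x axis, 6 young and 10 middle-aged rats) and in the second (y axis, 6 and 6), with standard errors and a dashed line of equality. Filled points were called over all rats; 15 of these 16 lie on the same side of 0 in both runs, and Txnrd1 is at 0.0096 and -0.31.

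Other genes of the pathway were read from 8 lists of 97 genes. Their results are from the main test alone, as the alternatives were read for the members only. Of those tested, CA1 had 18 of 86 called (11 higher, 7 lower), CA3 had 17 of 85 (12 higher, 5 lower), the DG had 22 of 85 (9 higher, 13 lower) and the average had 40 of 85 (23 higher, 17 lower). These shares, 20.9%, 20%, 25.9% and 47.1%, lay below those of all genes in the same comparisons. By list, the share called on the average ran from 25% (oxidant sources) to 63.6% (partners and regulators of Nfe2l2), where 50% of all genes were called. Over all lists, the median change was 0.05 (CA1), 0.0254 (CA3), 0.025 (DG) and 0.06 (average), and that of all genes was at most 0.01 in each.

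Of 11 partners and regulators of Nfe2l2, 3 rose and 4 fell on the average, where 25.4% of all genes were called higher and 24.6% lower. Cul3, the scaffold of the ligase that KEAP1 recruits, rose by 0.34 ± 0.06 (adjusted p = 3.5e-05) and was called in each subregion, at 0.37 (CA1), 0.29 (CA3) and 0.35 (DG). Its CA3 counts ranged from 1125 to 1892 (median 1458) in young and from 1484 to 2123 (median 1763) in middle-aged rats. Mafg, a small MAF protein that pairs with NRF2 on DNA, changed by -0.22 ± 0.05 (adjusted p = 0.0012), and Sqstm1, the adaptor p62 that binds KEAP1, by -0.14 ± 0.03 (adjusted p = 0.0005). Of 11 enzymes of NADPH supply, 2 rose and 4 fell on the average. Pgls and Tkt, enzymes of the pentose phosphate pathway, changed by -0.28 ± 0.06 (adjusted p = 0.00026) and -0.12 ± 0.03 (adjusted p = 0.0012).

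In cystine uptake and glutathione turnover, 1 of 14 rose and 4 fell on the average (35.7% called, against 50% of all genes). Among those that fell were Ggt7 at -0.27 ± 0.05 (adjusted p = 4.6e-05), Cbs, which feeds homocysteine towards cysteine, at -0.15 ± 0.04 (adjusted p = 0.00098), and Chac1, which degrades glutathione, at -0.23 ± 0.05 (adjusted p = 0.00056). Of 13 other glutathione transferases, 5 rose and 2 fell (53.8% called, against 50% of all genes), with Gsta1 at 0.20 ± 0.05, Gstm3 at 0.15 ± 0.04 and Gstz1 at 0.14 ± 0.04. These families also hold similar copies, so their split is uncertain. The age effect on Gstm3 was smaller in the DG than in CA1, by a difference of -0.32 ± 0.08 (adjusted p = 0.0409). Of 12 selenoproteins and their synthesis genes, 4 rose and 1 fell on the average (41.7% called, against 50% of all genes). Selenop, the selenium carrier, rose in all 3 subregions, at 0.48 (CA1), 0.38 (CA3) and 0.41 (DG), and Pstk, an enzyme of selenocysteine synthesis, changed by 0.33 ± 0.06 on the average (adjusted p = 0.00014).

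Of 8 genes of iron storage and heme breakdown, 3 rose and 1 fell on the average (50% called, as of all genes). The ferroxidase Cp was called in each subregion, at 0.58 (CA1), 0.48 (CA3) and 0.50 (DG). Blvrb, a biliverdin reductase, changed by -0.14 ± 0.04 on the average. The difference of its age effect, DG minus CA3, was -0.38 ± 0.08 (adjusted p = 0.0111). Of 8 oxidant sources, 2 rose and 0 fell on the average in limma (25% called, against 50% of all genes). The 2 were the astrocyte-enriched monoamine oxidase Maob at 0.22 ± 0.04 (adjusted p = 0.00023) and the NADPH oxidase subunit Ncf1, made by microglia, at 0.50 ± 0.16 (adjusted p = 0.013). In CA1 the highest Ncf1 count was 1464 against a median of 175 at 12 months. Of 8 glutaredoxins and methionine sulfoxide reductases, 3 rose and 1 fell (50% called, as of all genes), with Glrx5 at -0.20 ± 0.06, Msrb2 at 0.11 ± 0.04 and Msrb3 at 0.17 ± 0.06.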

How the data were processed

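RNA of 84 libraries was analysed. Per the labels, polyA RNA was cut with RNase III and sequenced from Ion Total RNA-seq libraries. STAR 2.5.3a, Partek, DESeq2 3.5 and build rn6 are named in the submitters' processing notes, with no order or settings. Annotation, gene filter and strand: not given in the sources used here. The authors deposited 1 table per subregion of normalized read counts, a signal in which every value is a whole number of reads divided by 1 size factor per library: within 0.1 of a read, 100% of values up to 1000 reads were whole, so reads were recovered. One column of the CA3 table is headed by an animal number alone and was taken as that animal's CA3 library. The tables held 0 columns of samples not used.

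The filter kept genes that reached a value of 10 in 12 or more of the 28 libraries. The test ran on log2(value + 1) with limma 3.58.1 (trend, 2-sided) in R 4.3.3, with Benjamini-Hochberg adjustment over all genes tested and a threshold of 0.05. Fold changes are on the log2(value + 1) scale, which understates those of low genes. The average used a rat's mean of 3 log2 values, and differences used values within a rat, as the sample titles name the animal. The within-rat correlation in a joint fit was 0.107. Rats are separate animals. The test was checked on simulated data with changes of 1.2-fold and 1.5-fold. At 1.2-fold, 24% (CA1), 51% (CA3), 20.2% (DG) and 75% (average) of changed genes were recovered. The shares for the DG minus CA1 and the DG minus CA3 were 4.81% and 12.5%. At 1.5-fold the shares, in the same order, were 78.1%, 84.4%, 78.1%, 95.8%, 43.8% and 53.1%. A gene that was not called can therefore have changed by such an amount. All members may be named; of related lists, up to 3 genes per list with the smallest p on the average and up to 2 per subregion were named among those called, and 1 such gene is not reported here. Members and lists were chosen with earlier results of these data known. Alternatives were a pseudocount of 0.5 or 5, every gene kept, a filter value of 50, TMM, quantile normalization, the recovered reads (counts) in edgeR 4.0.16 or DESeq2 1.42.0, the run as a model term, either run by itself, leaving out each rat, joint fits with and without the rat as a block and, chosen after seeing the data, leaving out rats with choroid plexus or microglia markers over 3 times the median. The mitochondrial share and the marker sums are described only, and calls of single marker genes are from the same limma test.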

Additional observations from a re-analysis of the deposited data

Results flagged for a closer look

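A difference of the age effect between the DG and CA3 was called for 2 members by a limma test of the within-rat difference over all genes. For Sod2 the difference of the age effect, DG minus CA3, was 0.21 ± 0.05 on the log2 scale (adjusted p = 0.0263), with 15 of 16 middle-aged rats above the young median. For Sod3 it was -0.36 ± 0.10 (adjusted p = 0.0428), with 15 of 16 below. In the separate subregions the changes were 0.12 in the DG and -0.08 in CA3 for Sod2, and -0.30 and 0.07 for Sod3. Both calls were lost in joint fits with and without the rat as a block and without the 9 rats with high choroid plexus or microglia markers (adjusted p = 0.109 and 0.216), and the Sod3 call in 19 of 28 fits omitting a single rat. Of all genes, 3.38% were called in the main test. The share was 1.86% with the block, 0.448% without it and 0.104% without the 9 rats.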

How the results depend on the processing

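Of 43 called changes of members, 4 held under every alternative other than leaving out a rat (Prdx5 in CA3, and Prdx1, Gclc and Gclm on the average), and 29 held when any 1 rat was left out. Txnrd1 changed sign in the first run alone, to 0.10 in the DG and 0.0096 on the average. Counts of called members by limma in the first run alone were 3 in CA1, 2 in CA3, 0 in the DG and 8 on the average (6, 8, 11 and 16 over all rats), 0 for the DG minus CA3, and 2 for CA1 minus CA3 (Prdx1 and Txn1). Of all genes, that run called 3.19% in CA1, 4.83% in CA3, 0.172% in the DG and 18.4% on the average. For the DG minus CA3 and CA1 minus CA3 it called 0.00696% and 0.689% of all genes. CA1 gave 15 in the second run alone and 12 with a term for the run, where 33.8% and 32.2% of all genes were called (25.2% in the main test). Quantile normalization gave 7 in the DG, where 36.4% of all genes were called. For the DG minus CA1, 1 member (Prdx4) was called with a minimum of 50, with quantile normalization, with the run term, and in a joint fit with the rat as a random replicate block. Of all genes, 1.65%, 1.19%, 2.55% and 2.94% were called there, in that order (1.05% in the main test). For the DG minus CA3, 0 members were called with that block and 0 with no block (2 in the main test). The shares of all genes were 1.86% and 0.448% (3.38% in the main test). Without the rats with high choroid plexus or microglia markers, 10 were called on the average and 0 for the DG minus CA3. Of all genes, 46.3% and 0.104% were then called. The cause of these shifts was not tested. Leaving out each rat in turn gave 3 to 9 called members for CA1, 8 to 10 for CA3, 8 to 12 for the DG, 13 to 18 for the average, 0 to 1 for the DG minus CA1, 0 to 3 for the DG minus CA3 and 0 for CA1 minus CA3. The CA1 count was 3 without young replicate 8, middle-aged replicate 12 or middle-aged replicate 16. The block changed no other count by more than 1.5 times. edgeR and DESeq2 called 8 and 9 members (CA1), 8 and 9 (CA3), and 11 and 11 (DG). Of all genes they called 26.2% and 28.6% (CA1), 21.8% and 23.1% (CA3), and 37.6% and 39.3% (DG).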
